A study of Mus musculus with 2 samples.

Results

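SNAREs, VPS proteins and sorting nexins are the machinery that moves membrane between the endoplasmic reticulum, Golgi, endosomes, lysosomes and cell surface. The genes were taken by name from the array's own annotation: syntaxins (Stx), syntaxin-binding proteins (Stxbp), Vamp, Vti1, Gosr, Bet1, Vps and Snx genes with a number in their name, together with Ykt6, Bnip1, Snap23, Snap29 and Napa. This gave 100 genes with 161 probes, of 34793 gene names and 55669 probes. RNA accessions of the RefSeq table (GRCm38.p6, used for names) matched 99 of the 100 genes; the file's Stxbp3a is now Stxbp3.

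The cells were microglia, the macrophages of brain and spinal cord, sorted from spinal cords of 2 kinds of mice: controls and a model of atopic diathesis, a disposition to allergic disease. The labels title the control sample normal and the atopic diathesis sample activated. Each group is 1 sample on 1 single-colour array, and strain, age, number of animals and the way the model was made are not given in the sources used here. Since neither group has a replicate, no difference was tested, and each value describes this pair of samples.

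SNAREs are small coiled-coil proteins on vesicle and target membranes whose zippering drives fusion. Sec1/Munc18 proteins such as Vps45 and the Stxbp family bind syntaxins, and tethers such as HOPS, CORVET and GARP hold membranes close beforehand. Retromer and sorting nexins pull cargo out of endosomes for reuse, and ESCRT complexes sort ubiquitinated cargo into multivesicular bodies on the way to the lysosome. Microglia depend on this traffic to digest what they engulf, to secrete and to recycle receptors.

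The probes are 60-base oligonucleotides, and a handful of them decide the results. The following were selected because their mm9 coordinates span more than 60 bases, so that each crosses an exon junction, and because they were measured on both arrays and hold an open reading frame on the printed strand. They show the lowest log2 difference among the 51 genes measured on both arrays (Vps45), a low one in an ESCRT gene (Vps37a) and a gene with nearly equal signals (Vps36). The conditions of selection were met by 4 probes, and that of Stx4a, at a log2 difference of 1.75, is not printed. No part of a probe is marked in capitals.
Vps45: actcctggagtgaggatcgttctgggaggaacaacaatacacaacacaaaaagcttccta
Vps37a: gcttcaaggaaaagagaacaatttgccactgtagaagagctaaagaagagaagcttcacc
Vps36: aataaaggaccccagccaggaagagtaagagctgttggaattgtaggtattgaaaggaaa
The Vps45 probe lies on chromosome 3 between 95804068 and 95823584 (minus strand), the Vps37a probe on chromosome 8 between 41629288 and 41630337 (plus strand) and the Vps36 probe on chromosome 8 between 23317324 and 23318373 (plus strand). Their log2 differences were -5.53, -3.60 and 0.17.

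Levels are processed fluorescence signals on a linear scale. A gene counts as measured if the scanner software marked a probe of it as well above background on both arrays. Its level is the mean of log2 signals over such probes. Log2 differences are atopic diathesis minus control, relative to the median measured gene, which itself lay at -0.03. "Higher" and "lower" mean at least 2-fold from that gene. The error between repeated spots, from 93 probes, corresponds to an SD of 0.18 on a log2 difference and to a 95% interval of ±0.35. It covers spot error only and leaves out animals, sorts and amplifications. The software's own error for a signal was close to 10.2% (control) and 10.4% (atopic diathesis) at the median of member probes above background. It was a larger part of dim signals, such as 5.66 on 30.0 for Vps36 in control. The interval of ±0.35 is pooled and the same for every gene, so it can be too narrow for dim ones.

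Of the 100 genes 51 were measured on both arrays (51%), against 26.4% of all gene names. Among them 12 were higher and 12 lower, 23.5% each way. Over all 9196 measured genes 17.3% were higher and 15.6% lower, 32.9% in either direction against 47.1% of the measured SNARE, VPS and sorting nexin genes. How often genes lay past 2-fold depended on signal: when all genes were ranked by mean signal and cut into 5 equal classes, 20.2%, 45.9%, 46.6%, 36.5% and 15.2% did, from the dimmest class to the brightest. Of the genes described here 0 of 5, 6 of 10, 8 of 13, 3 of 11 and 7 of 12 did in the same order, a share above that of all genes in 3 classes and below it in the other two. On the scale of the 75th percentile of all probes, where the median of all genes was -0.50, 10 of the 51 were higher and 14 lower, against 985 higher and 2499 lower (27.2%) of all 9196 genes. Their median difference from the median gene was 0.25, with 30 above and 21 below the median gene, and the middle of the list ran from -0.78 to 0.79 (quartiles), against -0.57 to 0.63 for all genes. Of the 51, 12 (23.5%) lay within the spot interval of zero, against 33.2% of all measured genes.

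**Figure D1:**
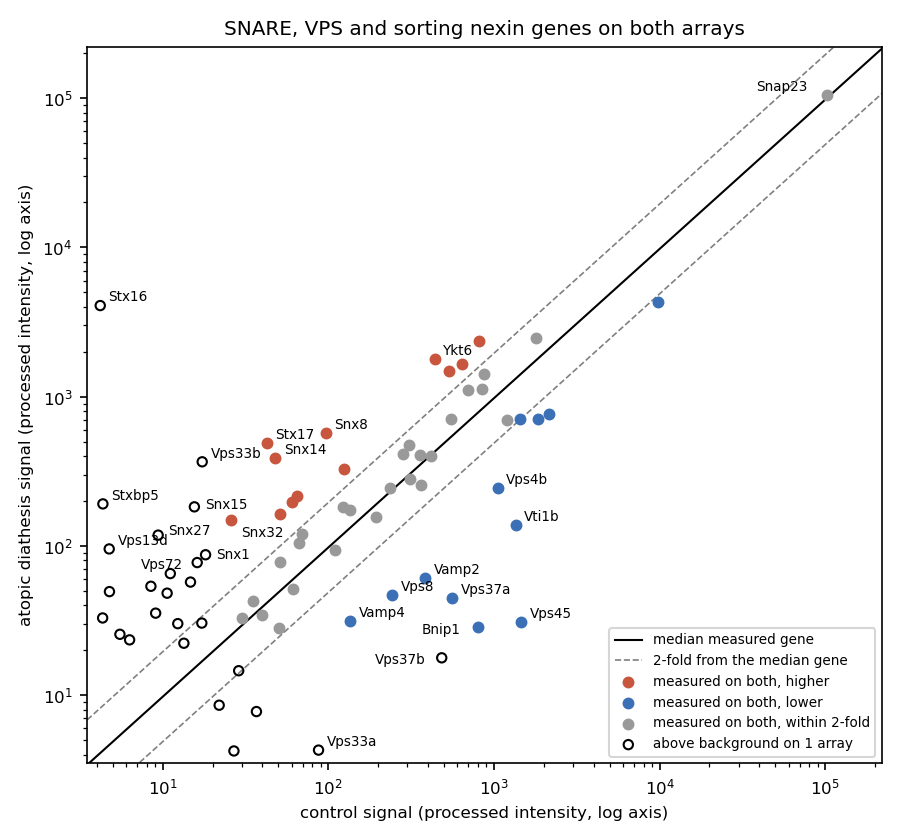
Processed signal on the control array (horizontal, log axis) and on the atopic diathesis array (vertical, log axis), 1 point per gene; the solid line is the median measured gene and the dashed lines are 2-fold from it. The 12 higher and 12 lower genes sit on both sides of the line, and open points are genes above background on 1 array only, with Stx16 at 4.20 and 4079.

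Another 20 genes were detected in the atopic diathesis sample alone and 7 in the control sample alone. Over all gene names those shares were 8.06% and 4.15%, but 21258 of all 34793 names were above background on neither array. Among genes above background on at least 1 array the atopic diathesis side held 20 of 79 here, against 2803 of 13535 overall. On the control side the counts were 7 of 79 and 1444 of 13535. The larger shares of all names thus partly reflect that more of these genes were detected. More probes altogether were detected in the atopic diathesis sample (27.6%) than in the control (24.1%). For a gene above background on 1 array a bound is given in place of a fold: the bright signal over the higher of the dim probe's own signal and the other array's lowest signal well above background, 19.8 in control and 19.9 in atopic diathesis. Of the 20 bounds 13 reached 2-fold, and of the 7 bounds 2 did; over all genes 59.4% and 51.3% did. Stx18 had a different probe above background on each array, and 21 genes were not well above background on either.

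The label of the cells was checked against marker genes. All 12 microglia markers, among them P2ry12, Cx3cr1 and Tmem119, were measured and lay within 2-fold (median -0.09). An Itgam probe shares 20 or more bases in a row with probes of 23 other gene names. The Itgam signals of 92920 and 82663 therefore cannot be assigned to that gene alone. A Cx3cr1 probe shares such a run with 1 other gene name and a Siglech probe with 2. None of 5 monocyte and neutrophil markers was above background. Of 8 neuron markers 6 were not above background, and the Snap25 probe shares 20 or more bases in a row with probes of 21 other gene names, so its signals of 82155 and 84015 cannot be assigned to neurons. Some glial markers stood higher in the atopic diathesis sample: the astrocyte genes S100b (163 and 672) and Gja1 (at least 12.5-fold), and the oligodendrocyte genes Cnp (68.2 and 216), Cldn11 (at least 15.6-fold) and Mag (at least 2.53-fold). Of 8 astrocyte markers 4 were measured, 1 of them higher, and of 9 oligodendrocyte markers 3, 1 of them higher. Among 7 endothelial markers 2 were measured, with Ly6c1 lower (-1.03), Flt1 at least 16.1-fold lower and Pecam1 at least 6.58-fold higher. Of 6 lymphocyte markers 5 were not above background. Summed marker signals were 1461 and 1987 for astrocytes, 1038 and 1326 for oligodendrocytes and 711 and 353 for endothelial cells. Each sum holds only the markers above background on that array, so the paired sums cover different genes. Gja1 (241) and Pecam1 (127) count in the atopic diathesis sums only, and Flt1 (328) in the control sum only. Aqp4, Aldh1l1, Mog, Olig1 and Olig2 were not above background on either array. The part of these cells in the results below was not tested, and in sorted bulk RNA fewer expressing cells and less RNA per cell cannot be told apart.

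The most extreme values belonged to a syntaxin and its binding protein. Stx16, the syntaxin of endosome to Golgi transport, read 4.20 in the control sample and 4079 in the atopic diathesis sample. It was therefore above background in the atopic diathesis sample only, and at least 211-fold higher. Its single probe lies on chromosome 2 at 173923835 to 173923894 (mm9, plus strand). Vps45, the Sec1/Munc18 protein that binds Stx16, read 1466 in the control sample and 31.0 in the atopic diathesis sample, 46.2-fold lower. The pair thus differed in opposite directions, each on 1 probe. The Stx16 bound ranged down to at least 41.2-fold and the Vps45 log2 difference up to -3.71 under other background corrections.

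The other SNAREs of this route were Stx6, Vti1a and Vamp4. Stx6 had signals of 61.1 and 51.2, a log2 difference of -0.22. Vti1a was above background in control only (26.9 against 4.24), with a bound under 2-fold. Vamp4, the vesicle SNARE of the set, was measured by 1 probe at 136 and 31.5, 4.21-fold lower. A second Vamp4 probe, on chromosome 1 at 164528962 to 164529021, read 19.2 and 1087, in the opposite direction and above background in the atopic diathesis sample only. The probes differed in direction, and none is given for the gene as a whole.

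SNAREs of late endosomes and lysosomes split too. Stx7, a late endosome syntaxin, had 814 and 2353, 2.96-fold higher, and its partner Stx8 was above background in atopic diathesis only (14.7 and 57.3, at least 2.97-fold). Vti1b, which joins them in late endosome fusion, had 1351 and 137, 9.60-fold lower. Vamp8, the fourth helix of that bundle, lay within 2-fold (693 and 1107, log2 difference 0.71), and so did Vamp7 (0.45). Stx12, another endosomal syntaxin, was not above background on either array. Stx7 and Stx8 were thus brighter and Vti1b dimmer in atopic diathesis microglia, and the 4 genes of the bundle have no shared direction.

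Stx17, the syntaxin of autophagosomes that pairs with Snap29 and Vamp8, had the highest log2 difference of the measured genes, 3.55, from signals of 42.6 and 488. That value comes from a probe on chromosome 4 at 48198579 to 48198638. Another Stx17 probe, at 48179853 to 48179912, read 44.4 in control and 4.69 in atopic diathesis, in the opposite direction and above background in control only. The gene's direction therefore depends on the probe. Snap29 had 50.3 and 28.0, a log2 difference of -0.81, which is just short of 2-fold lower.

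Between endoplasmic reticulum and Golgi genes lay on both sides, Bnip1 lower and Ykt6 higher. Bnip1, the Sec20 SNARE of retrograde transport to the endoplasmic reticulum, had 802 and 28.5, 27.5-fold lower. Ykt6, a lipid-anchored SNARE of the Golgi and of autophagosomes, had 440 and 1780, 4.14-fold higher. Stx18, which acts with Bnip1, read 426 and 17.3 on one probe and 4.74 and 24.2 on another, so it had no probe above background on both arrays. The Golgi SNAREs Gosr1 (0.75), Gosr2 (0.65) and Stx5a (0.22) lay within 2-fold. A second Gosr2 probe read 28.9 and 8.09, in the opposite direction and above background in control only. Bet1l was above background in atopic diathesis only with a bound of 1.84-fold, and Bet1 was not above background on either array.

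At the plasma membrane 1 of 3 measured SNAREs differed by 2-fold. Stx4a, the syntaxin of regulated secretion, had 60.4 and 198, 3.36-fold higher, and a second probe read 16.5 and 156, in the same direction. Its binding protein Stxbp3a was higher too, with 51.0 and 164, 3.29-fold higher. The neuronal syntaxin Stx1a was above background in atopic diathesis only with a bound under 2-fold. Snap23 read 102285 and 105030, but its probe shares 20 or more bases in a row with probes of 23 other gene names, while its other probes read between 4.97 and 35.3. No level of Snap23 can be taken from it. Stx2, Stx3, Stx11 and Stx19 were not above background; 10 spots of 1 Stx3 probe gave 6.23 ± 2.74 in control and 6.45 ± 2.42 in atopic diathesis (SD over spots, n = 10 spots of 1 sample).

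Among vesicle SNAREs Vamp2 and the measured probe of Vamp4 lay past 2-fold. Vamp2, synaptobrevin, had 385 and 60.6, 6.20-fold lower, and Vamp4 was described above. Vamp3, cellubrevin, the close relative of Vamp2, had 313 and 280 (-0.12). Vamp1 was not above background on either array. Vamp5 (0.50) was within 2-fold as well, and its neighbour Vamp8 on chromosome 6, with probes 17372 bases apart, was too. Of the remaining regulators, Stxbp2, the Munc18 protein that binds Stx11, was at -0.74 with probes at -1.38 and -0.10. Napa, the alpha-SNAP that helps to take SNARE bundles apart, was at -0.46. A second Napa probe read 14.1 and 36.9, in the opposite direction and above background in atopic diathesis only. Stxbp5, or tomosyn, which holds syntaxins inactive, was above background in atopic diathesis only (4.36 and 191, at least 9.91-fold). Stxbp5l, a tomosyn relative, was at -0.16, and Stxbp4 and Stxbp6 were not above background on either array.

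**Figure D2:**
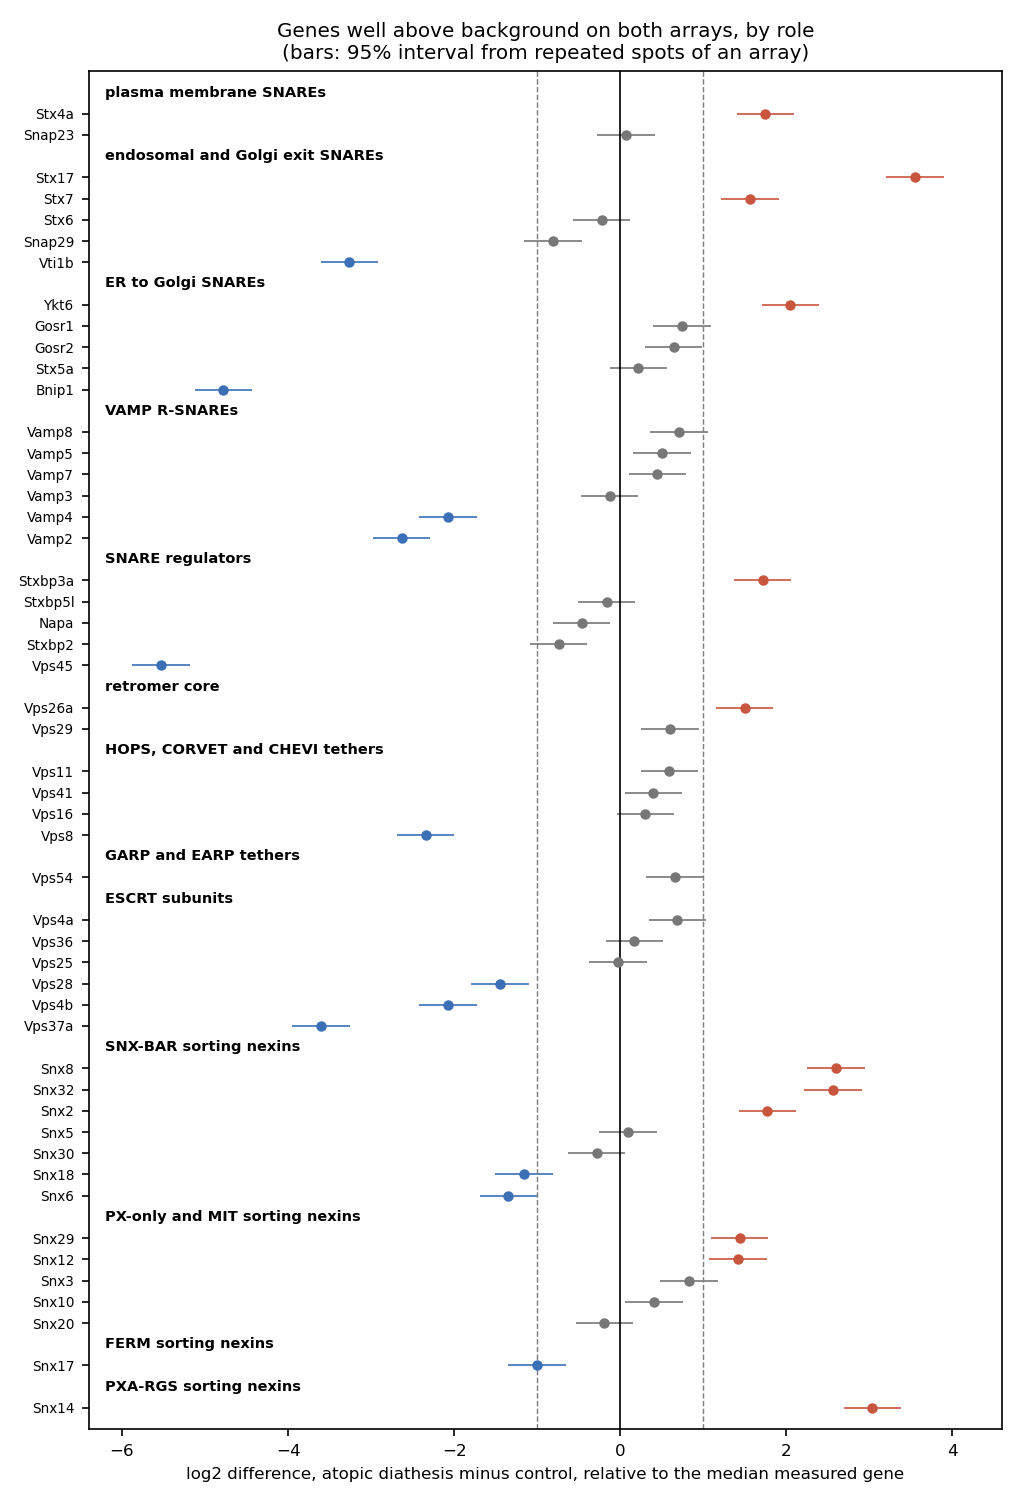
Log2 difference, atopic diathesis minus control and relative to the median measured gene, of genes well above background on both arrays, grouped by role. Bars are the pooled 95% interval of ±0.35 from repeated spots, the same for every gene, and dashed lines mark 2-fold. For dim genes the bars can be too narrow. Vps45 at -5.53 and Stx17 at 3.55 are the extremes, most roles hold genes on both sides, and the ESCRT group has 3 lower and 0 higher genes.

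The tethers that hand endosomes on to lysosomes differed member by member. Vps11, Vps16 and Vps41 lay within 2-fold, at 0.59, 0.30 and 0.40. Vps8, the subunit particular to the early endosome tether CORVET, had 243 and 46.7, 5.08-fold lower, and all 4 of its probes that were above background on an array were dimmer in atopic diathesis microglia. Vps18 was above background in atopic diathesis only (8.50 and 53.7, at least 2.78-fold), and Vps39 had a bound of 1.16-fold.

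The paralogues Vps33a and Vps33b were each detected on a different array. Vps33a, the Sec1/Munc18 subunit of HOPS and CORVET, was printed 10 times per array. Its spots gave 87.9 ± 10.6 in control, from 74.9 to 105, and 4.30 ± 0.24 in atopic diathesis, from 4.01 to 4.77 (SD over spots, n = 10 spots of 1 sample). The bound was at least 4.29-fold lower, and the spread over spots covers spot error only. Vps33b, which works in a separate complex with Vipas39, had 17.3 and 366, at least 19.0-fold higher. Vipas39, under its old name Vipar, went the other way from Vps33b, above background in control only and at least 3.95-fold lower.

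Of the 4 retromer core genes 2 were measured, 1 of them higher. Vps26a, a cargo-binding arrestin-like subunit, had 536 and 1483, 2.83-fold higher. Vps29 had 3 measured probes, with signals of 235 and 240 on the first and 74.8 and 157 on the second, and a mean log2 difference of 0.60. The second and the third share 44 bases and are not separate readings. Vps35, the scaffold of retromer, was near background (5.52 and 25.6) with a bound of 1.33-fold, and Vps26b was not above background on either array.

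In the sorting nexins that carry a membrane-bending BAR domain, the partners of the Snx1, Snx2, Snx5 and Snx6 coat differed. Snx2 had 64.5 and 215, 3.41-fold higher, and Snx1 was above background in atopic diathesis only (18.2 and 87.4, at least 4.52-fold). Snx6 went the other way on 1 measured probe, with 1837 and 705, 2.55-fold lower. That probe shares a run of bases, counted as for Snap23, with probes of 1 other gene name. A second Snx6 probe, not well above background on either array, read 9.24 and 20.8, brighter in atopic diathesis. The Snx6 log2 difference was -0.15 with no background filter. Snx5 was at 0.09, but one probe read 367 and 204 and the other 151 and 294, in opposite directions. Snx32, the near relative of Snx5 and Snx6, had 25.8 and 149, 5.91-fold higher.

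Other genes of this class included Snx8, an endosomal nexin, which had 96.6 and 572, 6.06-fold higher. Snx18, which acts with dynamin in membrane scission, had 9828 and 4302, 2.23-fold lower. Its relative Snx9 was above background in atopic diathesis only, at least 2.50-fold higher. Snx30 combined probes at -1.91 and 1.35 to -0.28, and no direction can be given. Snx4 and Snx7 had bounds of 1.22-fold and 1.56-fold on the atopic diathesis side, and Snx33 was not above background on either array.

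Sorting nexins with little more than the lipid-binding PX domain numbered 11, of which 5 were measured, 2 higher and 0 lower. Snx12 had 637 and 1665, 2.67-fold higher, and Snx29 had 124 and 329, 2.71-fold higher. Snx3, the retromer adaptor, had 69.4 and 121 (0.83) and was the nearest to 2-fold higher without reaching it. Snx10 was measured by 10 spots per array, at 548 ± 30.3 and 710 ± 28.7 (SD over spots, n = 10 spots of 1 sample), a log2 difference of 0.41. Snx20 was at -0.19. Snx15 (at least 9.47-fold) and Snx21 (at least 2.56-fold) were above background in atopic diathesis only, Snx24 on the same side had a bound of 1.58-fold, and Snx11 in control only had one of 1.08-fold. Snx16 and Snx22 were not above background on either array.

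The FERM-domain nexins, which recycle receptors to the surface, included 1 gene on each side. Snx17 had 1446 and 706, only just past 2-fold lower. Snx31 was not above background on either array. Snx27 was above background in atopic diathesis only, on 2 probes, from 9.39 to 118 on the brighter one (at least 6.12-fold). Snx14, a nexin of lipid droplets and the endoplasmic reticulum, had 48.0 and 386, 8.22-fold higher. Its relatives Snx13 and Snx25 were above background in control only, with bounds of 1.41-fold and 1.81-fold, and Snx19 was not above background on either array.

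The ESCRT genes held 3 lower and 0 higher of 6 measured. Vps37a, an ESCRT-I subunit, had 560 and 45.0, 12.2-fold lower, on 1 probe. A second Vps37a probe, not well above background on either array, read 19.6 and 20.2 and did not show this difference. Vps28, the ESCRT-I subunit that links to ESCRT-II, had 2138 and 765, 2.73-fold lower. Vps37b was above background in control only (484 and 17.8, at least 23.8-fold lower). The third lower gene on both arrays was Vps4b, which lies outside ESCRT-I.

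In the next complex, ESCRT-II, all 3 genes lay within 2-fold. Snf8 had 337 and 185 (-0.83), Vps25 had 3 measured probes between -0.14 and 0.06, and Vps36 had 30.0 and 33.0 (0.17). Of the ATPases that take ESCRT filaments apart, Vps4b had 1051 and 244, 4.21-fold lower, whereas its paralogue Vps4a had 67.0 and 106 (0.69). A second Vps4b probe, not well above background on either array, read 4.25 and 8.15. Vps37c and Vps37d were not above background on either array.

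With the ESCRT-I genes that carry no Vps name the same direction was seen, in a grouping made after the values were known. Ubap1 had 162 and 34.7 (-2.19), and the MVB12 genes, named Fam125a and Fam125b in the files, had 182 and 26.6 (-2.74) and 343 and 76.1 (-2.14). All 5 measured ESCRT-I genes were thus lower, against 15.6% of all measured genes. The exception was Tsg101, the ubiquitin-binding subunit, which was above background in atopic diathesis only (4.30 and 48.9, at least 2.53-fold higher). The 5 genes stayed lower in each of 9 alternatives that measured the same 5, and with the brighter probes only 1 was left. With looser background filters 6 of 7 and 6 of 9 were lower.

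Among VPS genes elsewhere, the GARP tether of the Golgi was measured through Vps54 (0.66, with probes at -0.06 and 1.38), Vps52 was at least 3.38-fold higher on the atopic diathesis array only, and Vps53 was not above background on either array. The lipid transfer gene Vps13d was above background in atopic diathesis only, on 2 probes (at least 4.95-fold), while Vps13a, Vps13b and Vps13c were not above background. Vps72 shares the name but encodes a subunit of a chromatin remodelling complex; it read 16.2 and 77.5, at least 4.01-fold higher.

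**Figure D3:**
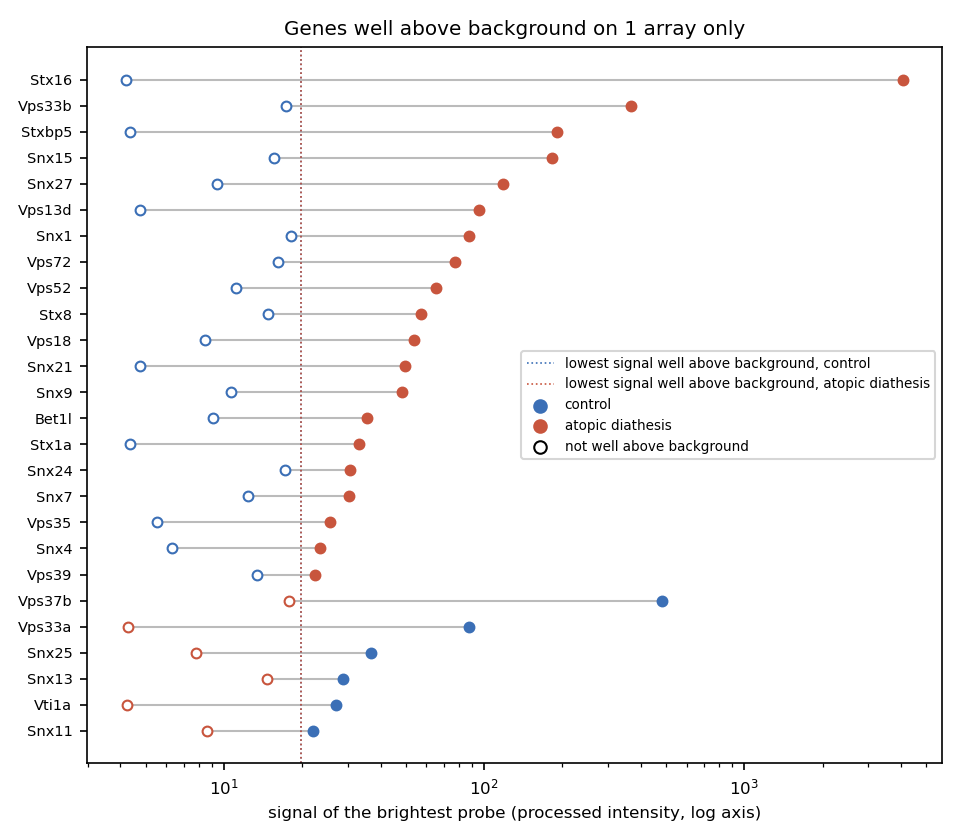
Signals (log axis) of genes above background on 1 array only, joined by a line per gene; filled points are well above background, open points are not, and dotted lines mark the lowest signal well above background on each array. Stx16, Vps33b and Vps37b lie far from that line, whereas Vps39, Snx4 and Snx11 lie next to it.

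Agreement between probes limits single genes. Of the 51 measured genes 45 rested on 1 measured probe. In 21 genes more than 1 probe was above background on at least 1 array. Counted by the sign of each difference alone, whatever its size, all probes were brighter in atopic diathesis in 9. All were dimmer in 3, among them Vps8 and Stxbp2, and the signs were mixed in 9. Such counts include differences inside the spot interval. The Vps25 probes, counted as mixed, lay between -0.14 and 0.06, and 1 of the Stxbp2 probes was at -0.10. Snap23, from which no level can be taken, is among the 9 with all probes brighter. Stx4a, Stxbp3a, Snx27, Snx29, Vps13d and Vps18 were among the 9 with all probes brighter, although the Stxbp3a probes share 25 bases.

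**Figure D4:**
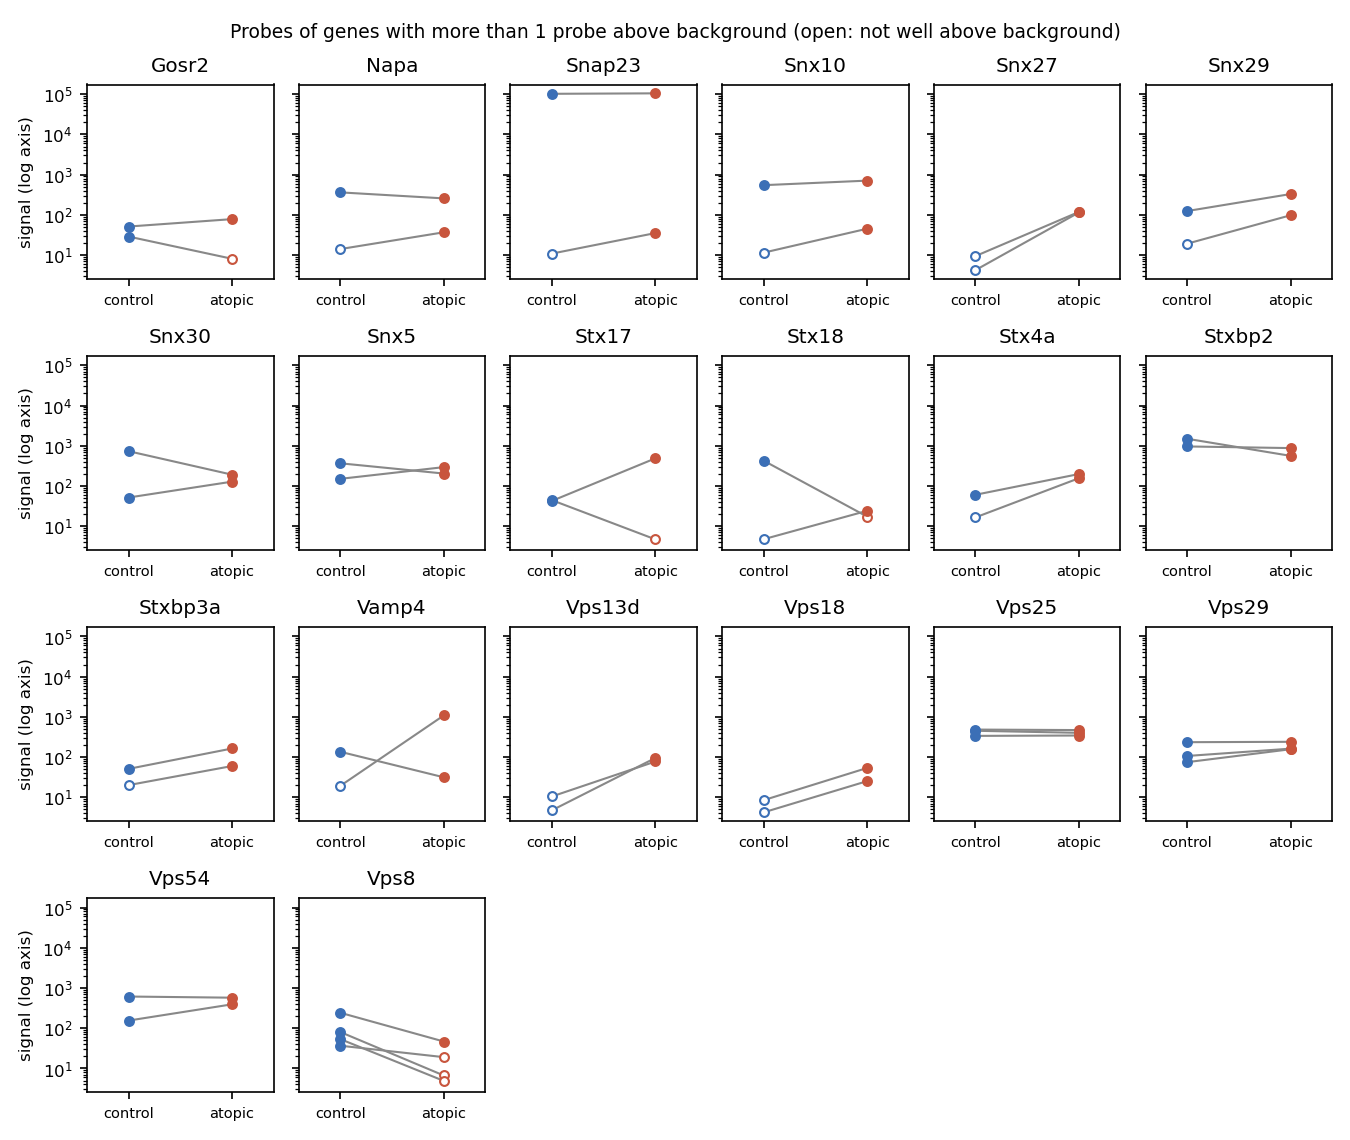
Signals (log axis) of each probe above background on at least 1 array, for genes with more than 1 such probe, control at left and atopic diathesis at right; open points are not well above background. The lines of each of Vps8, Stx4a and Snx27 run in the same direction with unlike slopes, and those of Vamp4, Stx17, Stx18 and Snx30 cross or part.

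Related trafficking genes without these names were taken from 6 lists. Of 14 other SNARE and cofactor genes on the array 7 were measured, 2 higher and 0 lower: Sec22b, the R-SNARE partner of Bnip1 and Stx18, had 137 and 687 (2.36), and Snap47 103 and 220 (1.13). Of 20 further ESCRT genes 13 were measured, 3 higher and 4 lower, the lowest being the filament gene Chmp4b (304 and 31.2, -3.25) and the highest Chmp3 (1.86). Of 16 WASH and Commander genes, which recycle cargo with Snx17, 8 were measured, 2 higher and 0 lower, led by Commd1 (33.9 and 244, 2.88). A further 6 of that list were above background in atopic diathesis only, 5 of them by at least 2-fold, with Commd10 at least 32.9-fold, and 1, Dscr3, in control only. Exocyst and COG tethers gave 2 higher and 3 lower of 7, and the sorting receptor and tether list 1 higher (Tgfbrap1, the partner of Vps8 in CORVET, 1.19) and 0 lower of 2. In the class III lipid kinase list, Pik3c3 was at least 7.94-fold higher and its regulatory partner Pik3r4 at least 4.82-fold lower, with 1 higher and 0 lower of 2 measured.

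Promoter sequences of RefSeq (GRCm38.p6) were found for 76 of the genes, 92 windows of 250 bases before a start site. They were searched for CACGTG, the E-box core read by many basic helix-loop-helix factors, among them the lysosomal regulator TFEB, and for the longer TCACGTGA, which contains it; each reads the same on both strands. CCAAT and TATAAA, common promoter motifs, were searched on both strands as well. CACGTG was in 12 of 92 windows (13%), against 6.02% of all 32851 windows, and TCACGTGA in 5 (5.43%), against 0.785%. CCAAT was in 33.7% of the windows against 33.8% of all, and TATAAA in 6.52% against 12.4%. Windows with CACGTG numbered 3 of 25 for genes higher by fold or bound, 4 of 11 for lower genes and 5 of 26 for genes within 2-fold. These are counts of windows, and a gene can have more than 1. The higher windows with the motif belong to Snx8 and Vps26a only. Vamp4 is placed among the lower genes, with the motif in 1 window, and Stx17 among the higher, without it. Both were placed by their measured probe, although their probes differed in direction. The motif was thus found in all 3 classes. One window of each class with TCACGTGA is shown with CACGTG in capitals, from 5′ to 3′ on the gene's strand: Vps33a of the lower, Vps26a of the higher and Vps16 of the genes within 2-fold.
Vps33a: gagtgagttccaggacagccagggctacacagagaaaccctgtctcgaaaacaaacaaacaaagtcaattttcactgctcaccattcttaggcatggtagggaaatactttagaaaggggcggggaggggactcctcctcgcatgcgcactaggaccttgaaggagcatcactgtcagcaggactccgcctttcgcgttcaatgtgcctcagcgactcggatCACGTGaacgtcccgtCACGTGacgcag
Vps26a: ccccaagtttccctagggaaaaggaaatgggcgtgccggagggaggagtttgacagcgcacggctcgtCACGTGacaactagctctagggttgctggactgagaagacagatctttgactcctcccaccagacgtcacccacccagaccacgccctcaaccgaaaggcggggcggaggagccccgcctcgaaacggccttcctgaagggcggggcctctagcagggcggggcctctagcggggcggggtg
Vps16: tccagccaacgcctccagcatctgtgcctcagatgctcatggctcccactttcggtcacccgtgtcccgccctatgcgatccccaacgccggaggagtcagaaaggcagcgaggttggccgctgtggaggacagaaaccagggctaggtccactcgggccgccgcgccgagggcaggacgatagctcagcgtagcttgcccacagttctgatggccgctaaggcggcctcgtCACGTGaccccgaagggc
In GRCm38.p6 they lie on chromosome 5 at 123573016 to 123573265 (minus strand), chromosome 10 at 62486806 to 62487055 (minus strand) and chromosome 2 at 130424070 to 130424319 (plus strand). A match is a run of letters and not a binding site, and no factor binding was measured here.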

How the data were processed

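Total RNA of sorted microglia was labelled with Cy3, per the labels' protocols, and hybridised to 1 single-colour Agilent mouse array per group. The authors deposited scanner files of spot intensity on a linear scale, background-subtracted by Agilent Feature Extraction 10.7.1.1 per the file headers (9.5.1.1 per the submitters' processing notes), with mm9 coordinates. The deposited series table holds intensity values whose columns, once sorted, differed by at most 0.01 in log2; no source states how it was normalized, and it served as an alternative. Control spots (3671) and outlier spots (136 and 122) were left out, spots of a probe were averaged on the log2 scale computed from the deposited signals, and a probe counted as detected where all its spots were well above background. No spot was saturated. The slide positions and the groups cannot be told apart.

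Signals were summarised per gene name of the file in Python 3.11.15 (pandas 2.3.3); normexp used limma 3.58.1. Genes within roles, related lists and markers follow fixed lists. By rule, the text names genes past 2-fold by fold or bound, the 3 of highest mean signal in each role, fixed paralogue pairs and the genes nearest the 2-fold line, with the remaining genes by name and range. The members and lists were chosen with earlier results of these data known. The grouping of ESCRT-I was made after the values were seen. Some genes that the rule selects are not reported here, by name or in the plots; they stay in the counts. No test was made. Alternatives were other scalings (percentiles, quantile, loess), background corrections (normexp, none), the series table, background filters, the brightest probe and kept outlier spots. The summaries were tested on simulated data.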

Additional observations from a re-analysis of the deposited data

How the results depend on the processing

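No paired analysis was possible because each group is 1 sample. Of 24 measured genes past 2-fold, 14 stayed past it under each of the 12 alternatives that gave them a value (Vps45, Bnip1, Vps37a, Vti1b, Vamp2, Vps8, Vps28, Snx18, Stx7, Vps26a, Ykt6, Snx8, Snx32 and Snx14); of 15 bounds 6 did. Stx17 and Vamp4 reversed, to -0.010 and 1.71 with probes detected on either array and to -0.66 and 1.81 with no background filter. The counts of 12 higher and 12 lower of 51 became 31 and 19 of 79 with probes detected on either array. Of all genes 29% were higher and 21.8% lower under that filter. With no background filter 36 of 100 were higher and 17 lower, against 16% and 8.76% of all genes. With the brighter probes only, where fewer genes were measured, 6 of 30 were higher and 7 lower, against 14.3% and 15.5%. The median difference was -0.25 on the scale of the 75th percentile of all probes, on which the median of all genes was -0.50. Signals near background limit the dim side of most folds.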
